A study of Arabidopsis thaliana with 8 samples.

Results

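Nicotianamine is a small metal chelator that plants make from S-adenosylmethionine and that binds iron, zinc, copper and manganese. Nicotianamine synthases, encoded by NAS genes, make it, and transporters of the Yellow Stripe-Like (YSL) group and the related oligopeptide transporter OPT3 move metals, largely as chelates, in and out of the vascular tissue. In Arabidopsis the pathway is known for carrying iron and zinc from the root to leaves, flowers and seeds and for its part in male fertility.

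The 8 genes described here are NAS1 (AT5G04950), NAS2 (AT5G56080), NAS3 (AT1G09240), NAS4 (AT1G56430), YSL1 (AT4G24120), YSL2 (AT5G24380), YSL3 (AT5G53550) and OPT3 (AT4G16370). They were chosen by locus, and all 8 had a probe among the 25383 loci that the array design covered. YSL1 had 2 probes, of which the brighter was used, and each of the other genes had 1.

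The arrays measured total RNA of flower buds (4 arrays) and of roots (4 arrays) from Arabidopsis thaliana, accession Col-0. All plants were 6 weeks old, healthy and raised in hydroponic culture, with no other treatment or genotype in the labels. Each array carried the RNA of 1 pool of 8 to 10 plants, so that p-values measure the spread between pools and not between single plants. In pooled whole organs, fewer cells of a type and less RNA per cell cannot be told apart.

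Signals are given as a percentage of the 75th percentile of the same array, which was 4661 to 4803 intensity units for flower buds and 2560 to 3574 for roots. Levels of different probes are not comparable, so each gene is compared only with itself across arrays. Where the signals of a list are summed, the brightest probes weigh most. Each difference is a log2 value for flower bud over root ± SE from limma (n = 4 arrays per tissue), with p-values adjusted by the Benjamini-Hochberg method over all 22197 genes tested. Calls required a 2-fold difference or more and an adjusted p below 0.05. Of the 8 genes 7 were called, against 55.0% of all genes tested. Without the fold threshold the same 7 passed, against 82.3% of all genes. The tissues did not overlap for these 7 genes, nor for 79.0% of all genes. Among the 4 genes measured well above background on every array, NAS4, YSL2, YSL3 and OPT3, 3 were called, against 46.8% of such genes, with 1 higher in flower buds (22.2% of such genes) and 2 higher in roots (24.6%). All 5 flower markers were called higher in flower buds, among them AP3 and AP1, and all 5 root markers, among them NRT2.1 and EXPA7, were called higher in roots (4 of 5 under normexp background correction). The number of arrays limits the precision.

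Members of both families were called in both directions. NAS3, YSL1 and OPT3 were higher in flower buds, NAS1, NAS2, YSL2 and YSL3 were higher in roots, and NAS4 was not called. These 3 and 4 genes stand against 30.2% and 24.8% of all genes tested. With scaling on 5 reference genes the calls over all genes shifted to 8694 towards flower buds and 4365 towards roots, from 6709 and 5506, yet each of the 7 genes kept its call and direction.

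**Figure D1:**
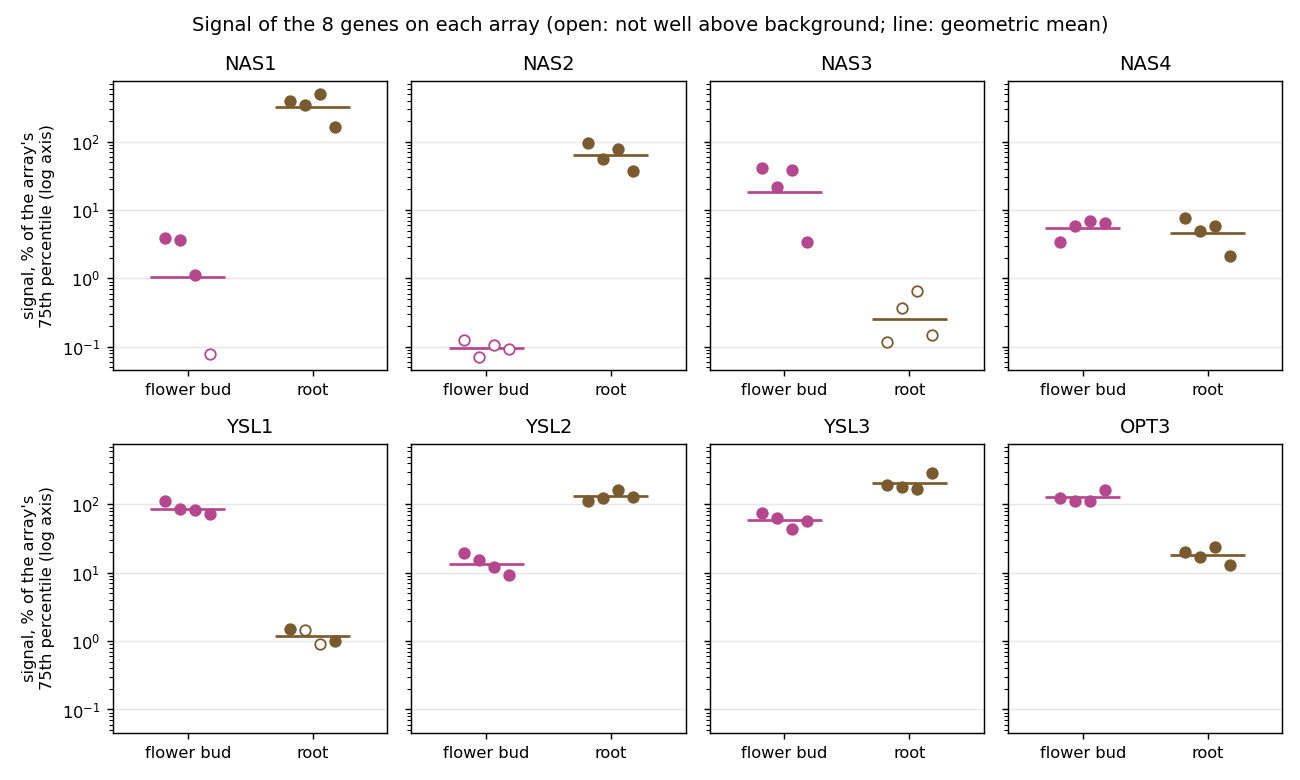
Signal of the 8 genes on each array, as a percentage of the array's 75th percentile on a log axis, with flower buds left and roots right in each panel. Points are arrays, open points were not well above background, and lines are geometric means. The tissues overlap only for NAS4, and the flower bud points of NAS1 run between 0.0797% and 3.86%.

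The 4 synthase genes, which encode the enzymes that form nicotianamine, split between the tissues. NAS1 had 3.86%, 3.65%, 1.104% and 0.0797% in flower bud replicates 1 to 4, against 397%, 348%, 496% and 162% in root replicates 1 to 4. The groups did not overlap, and the signal of flower bud replicate 4 was not well above background. The difference was -8.27 ± 1.18 (adjusted p = 0.000225), and without flower bud replicate 4 it was -7.02. Leaving out flower bud replicate 1 or 2 instead gave -8.89 or -8.86, and it was -6.57 under normexp background correction with quantile normalization.

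NAS2 had 0.125%, 0.0707%, 0.104% and 0.0914% in flower buds, against 95.5%, 56.3%, 78.0% and 37.7% in roots. None of the 4 flower bud arrays measured it well above background and all 4 root arrays did. The fitted difference of -9.36 ± 0.30 (adjusted p = 2.62e-08) therefore rests in part on unmeasured signal, and it was -5.16 under normexp. For a bound, each flower bud array was given the dimmest signal that counted as measured there, or the probe's own where brighter. Within the main processing this bound put roots at least 170-fold above flower buds, a log2 difference of -7.41. It was at least 352-fold where any flagged spot of a probe made it measured, a setting added after seeing the data. The bound was set for the main processing and was not computed under other background corrections. The normexp fit was smaller in size. It included an offset of 50 added to every spot, so it cannot test the bound.

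NAS3 ran the other way, with 41.9%, 21.6%, 38.9% and 3.43% in flower buds, against 0.117%, 0.365%, 0.656% and 0.150% in roots. It was well above background on all 4 flower bud arrays and on 0 of the 4 root arrays. Flower bud replicate 4 lay far below the other flower bud arrays and still above every root array. Within the main processing NAS3 signal in flower buds was at least 19.3-fold higher (4.27 on the log2 scale), or at least 43.6-fold with any flagged spot. The fitted difference of 6.19 ± 0.89 (adjusted p = 0.000231) became 7.01 without flower bud replicate 4 and 3.21 under normexp, which is below that bound.

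NAS4 was measured on all 8 arrays and did not separate the tissues. It had 3.45%, 5.76%, 6.92% and 6.39% in flower buds and 7.65%, 4.89%, 5.76% and 2.15% in roots. The lowest value belonged to root replicate 4 and the highest to root replicate 1, so that the flower bud range lay inside the root range. The difference was 0.23 ± 0.40 (adjusted p = 0.603), and its 95% interval of -0.69 to 1.15 leaves room for a 2-fold difference towards flower buds but not towards roots.

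Whether the paralogs differed in their tissue difference was tested on the log2 ratio of 2 probes of the same array, which subtracting a constant from an array does not change. There were 9 pairs, 6 among the NAS genes and 3 among the YSL genes. The ratios of 8 pairs did not overlap between the tissues (exact permutation test, two-sided, p = 0.0286, Benjamini-Hochberg adjusted p = 0.0321). The value 0.0286 is the smallest p that 4 arrays against 4 can give. Both probes were well above background on all 8 arrays in 1 of these pairs, YSL2 over YSL3. The other 7 hold NAS1, NAS2, NAS3 or YSL1, each at background on at least 1 array of the tissue where it was low. The sizes of these 7 differences are not measured, and their separation is not independent of that background. Their p-values are therefore not taken as support for a difference between the paralogs. The fitted differences of NAS3 over NAS4 and of NAS1 over NAS4 were 5.96 and -8.50, against 3.14 and -6.63 under normexp. For NAS1 over NAS2 the difference was 1.097 (exact permutation test, p = 0.371), and it turned to -1.41 under normexp background correction (exact permutation test, p = 0.0286). NAS2 was not well above background in flower buds, so the relation of these paralogs there is not measured.

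NAS genes are similar in sequence, probe sequences were not used here, and cross-hybridisation between the paralogs was not tested.

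Among the transporters, YSL1 acts with YSL3 in delivering metals to pollen and seeds. It had 110%, 85.3%, 82.0% and 71.4% in flower buds, against 1.53%, 1.46%, 0.908% and 1.02% in roots. The difference was 6.17 ± 0.21 (adjusted p = 3.45e-08), or 4.74 under normexp, and 2 of the 4 root arrays measured the probe well above background. Its second probe gave 39.8%, 27.7%, 29.5% and 25.4% in flower buds, against 0.494%, 0.390%, 0.332% and 0.252% in roots. No root array measured the second probe well above background, and its fitted difference was 6.40.

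YSL2, a transporter described in the vasculature, had 19.2%, 15.3%, 12.03% and 9.16% in flower buds, against 111%, 124%, 163% and 130% in roots. The gene was measured well above background on all 8 arrays, and every root array exceeded every flower bud array. The difference was -3.28 ± 0.23 (adjusted p = 2.83e-06), or 9.74-fold higher in roots.

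YSL3, the partner of YSL1, differed least of the called genes. It had 74.9%, 63.7%, 43.2% and 57.9% in flower buds, against 189%, 181%, 170% and 287% in roots. All 8 arrays were well above background and the groups did not overlap. Its difference of -1.78 ± 0.22 (adjusted p = 8.55e-05) corresponds to 3.44-fold higher signal in roots. The YSL2 over YSL3 ratio within arrays, measured throughout, differed by -1.5 (exact permutation test, p = 0.0286). The fitted difference of the YSL1 over YSL3 ratio was 7.95, or 6.55 under normexp, with YSL1 at background on 2 root arrays.

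OPT3, which loads iron and copper into the phloem and takes part in shoot-to-root signalling of iron status, had 126%, 111%, 113% and 163% in flower buds. In roots it had 19.98%, 17.0%, 24.1% and 13.2%. Every flower bud array exceeded every root array, by a difference of 2.80 ± 0.21 (adjusted p = 3.59e-06) or 6.98-fold. Vascular markers did not share this direction: 4 of the 5 were called higher in roots and the sieve tube sucrose carrier SUC2 was not called, at -0.61. The xylem protease gene XCP1 differed by -3.03 and the phloem lectin gene PP2-A1 by -1.19. With scaling on 5 reference genes XCP1 alone of the 5 was called. The summed signal of the 5 was 556% to 672% in flower buds and 1725% to 2018% in roots. The part of this shift in the root-high signals of YSL2 and YSL3 was not tested.

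**Figure D2:**
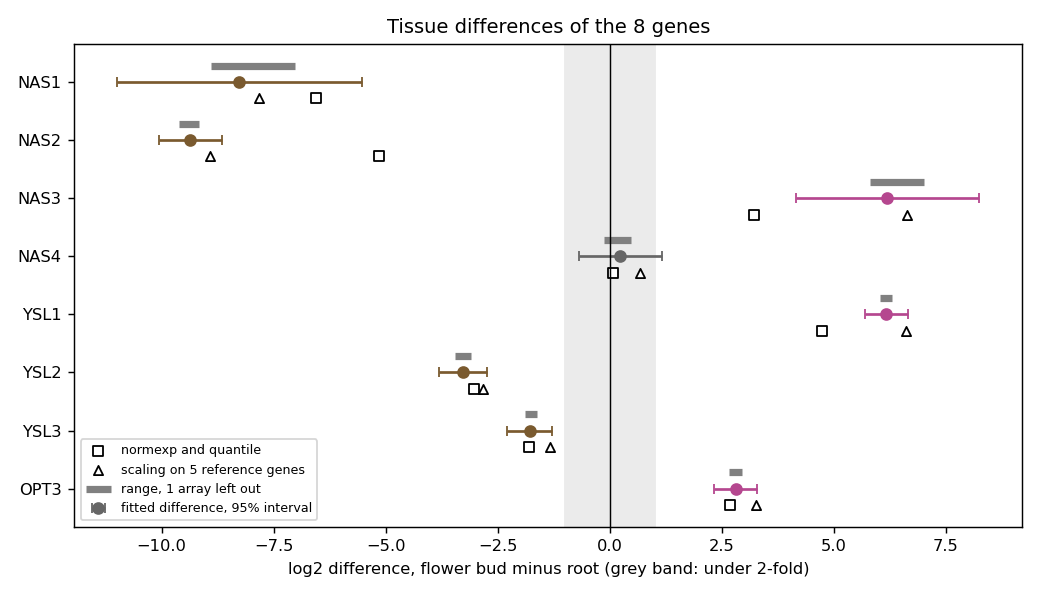
Differences of the 8 genes on a log2 axis, flower bud over root, with 95% intervals from limma (n = 4 arrays per tissue). Thick grey bars span the fits that each leave out 1 array, and open squares (normexp with quantile) and triangles (5 reference genes) are other processings. NAS1, NAS2, YSL2 and YSL3 lie left of the band of differences under 2-fold, NAS3, YSL1 and OPT3 lie right of it, and the NAS4 point lies inside. In their lower tissue NAS2 and NAS3 were well above background on 0 of 4 arrays, YSL1 on 2 and NAS1 on 3. The points and intervals of these genes rest in part on unmeasured signal.

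Among the 8 genes, flower bud pools differed most for NAS1 and NAS3 over all 4 arrays. Without replicate 4 this order held, but NAS3 was then close to NAS4. In flower buds the log2 SD over 4 arrays was 2.62 for NAS1 and 1.68 for NAS3, against 0.17 for the median of all genes tested. Without replicate 4 it was 1.02 for NAS1, 0.524 for NAS3 and 0.520 for NAS4, against 0.14 for the median gene. Over 4 arrays it was 0.35 for NAS2, 0.45 for NAS4, 0.26 for YSL1, 0.46 for YSL2, 0.33 for YSL3 and 0.26 for OPT3. For OPT3 it was 0.10 without replicate 4. The spread of NAS1 exceeded that of 99.95% of all genes tested in flower buds, where 1 of its 4 signals was not well above background. In roots NAS1, NAS2 and NAS4 had log2 SDs of 0.70, 0.59 and 0.79, against 0.21 for the median gene.

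Flower bud replicate 4 was the lowest flower bud array for NAS1, NAS3, YSL1 and YSL2, and the highest for OPT3. YSL1, YSL2 and OPT3 lay there at -0.27, -0.55 and 0.37 from their flower bud means. NAS3 lay at -2.44 from its flower bud mean, and NAS1 at -3.73, a value that is not measured since its signal there was not well above background. The median deviation of 5 late pollen markers was 0.97, 0.37, -0.28 and -1.04 on flower bud replicates 1 to 4. Of these markers 4 of 5 were called higher in flower buds, led by VGD1, a pectin methylesterase of pollen tubes, and PPME1, while TUA1 was not called. The summed signal of the list was 447% to 1572% in flower buds and 68.6% to 116% in roots. On the same arrays NAS3 deviated by 1.17, 0.21, 1.06 and -2.44, YSL2 by 0.52, 0.19, -0.16 and -0.55, and NAS4 by -0.66, 0.08, 0.35 and 0.23. The part of pollen stage in the spread of any of these genes was not tested.

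Root replicate 4 was the lowest root array for NAS1, NAS2, NAS4 and OPT3, with deviations of -1.0, -0.74, -1.11 and -0.46 from the root mean. It was the highest root array for YSL3, at 0.50. On the same array ZIF1, a vacuolar transporter of nicotianamine, was at 663%, against 224% to 255% on the other root arrays. The vascular markers deviated there by 0.02. All 7 calls held when each of the 8 arrays was left out in turn.

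**Figure D3:**
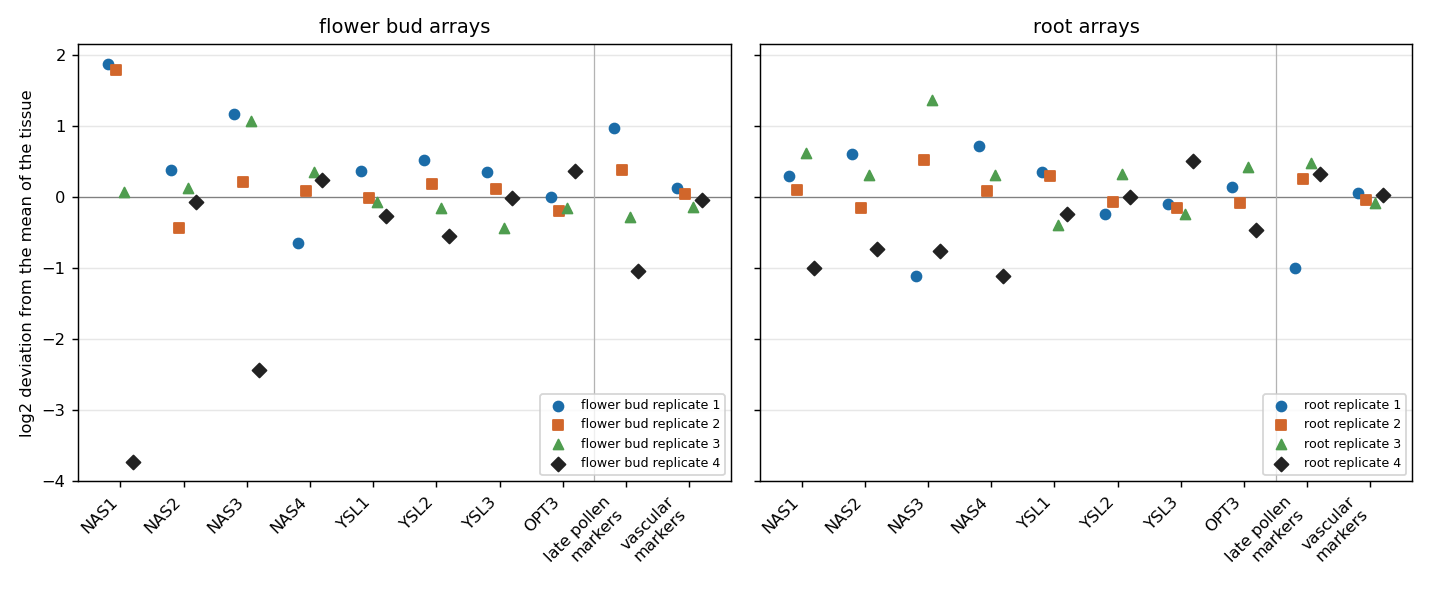
Log2 deviation of each array from the mean of its tissue, for the 8 genes and for the medians of 5 late pollen and 5 vascular markers, with flower bud arrays left and root arrays right. Symbols mark the replicate. Flower bud replicate 4 lies at -3.73 for NAS1, where the signal was not well above background, and -2.44 for NAS3, and root replicate 4 at -1.0 for NAS1 and -1.11 for NAS4.

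By likeness of profile over the 8 arrays, among 17899 other genes well above background on all 8, the gene nearest to OPT3 was AT5G47160, with a root mean square difference of 0.13 on the log2 scale after each gene's own mean was removed. The photolyase gene PHR1 (AT1G12370) followed at 0.15. YSL2 was nearest to AKN2 (AT4G39940) and MEB1 (AT4G27860), at 0.15 and 0.16, and YSL3 to AT2G28200 and AT4G22820, at 0.10 and 0.13. The nearest profiles to NAS4, AT2G23530 and AT1G14630, were less alike, at 0.26 and 0.28. These figures describe 2 tissues with 4 arrays each and carry no test.

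Other genes of the pathway were taken from 8 lists with 54 genes, of which 51 had a probe and 49 were tested. Of the 49 genes 9 were called with more signal in flower buds, 16 with more in roots, and 24 were not called, beside 30.2% and 24.8% of all genes called in these directions. Their median difference was -0.10, beside 0.15 for all genes tested.

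Of the remaining YSL family members, YSL4 to YSL8, only YSL5 was called, beside 55.0% of all genes tested. It differed by -1.29 ± 0.17 (adjusted p = 0.00013), towards roots like YSL3 at -1.78. The YSL5 call was lost with scaling on 5 reference genes, at -0.85, where YSL3 was at -1.34. The tissues did not overlap for YSL5 and YSL6, nor for 79.0% of all genes tested. YSL4, YSL6, YSL7 and YSL8 differed by 0.24, -0.55, -0.05 and 0.13, all well above background on all 8 arrays. Among the other 8 oligopeptide transporters, the wider family of OPT3, 3 were called towards flower buds and 1 towards roots, beside 30.2% and 24.8% of all genes tested. With scaling on 5 reference genes OPT2 and OPT8 also passed, at 1.22 and 1.08. In the main processing, of the 5 measured well above background on all 8 arrays, 0 were called towards flower buds and 1 towards roots. Within the main processing OPT9 exceeded its root signal at least 16.4-fold in flower buds (39.2-fold with any flagged spot), with 0 root arrays well above background. Its normexp fit of 3.36 was below this bound of 4.04 on the log2 scale. OPT1 differed by 5.79 ± 0.33 (adjusted p = 7.65e-07) and by 4.77 under normexp, and 2 of its 4 root arrays were well above background. OPT7 differed by -1.16 and was not called with scaling on 5 reference genes, at -0.71. OPT9 and YSL3, which were called in opposite directions, are separated by 3 protein-coding genes in the RefSeq gene order of assembly TAIR10.1.

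Of 4 synthetase genes for S-adenosylmethionine, the substrate of nicotianamine synthase, 1 was called, towards roots. Over all genes tested 24.8% were called towards roots and 30.2% towards flower buds. SAM1 differed by -1.52 ± 0.09 (adjusted p = 8.18e-07). SAM2, MAT3 and MAT4 differed by -0.89, -0.81 and -0.21 and were not called. SAM2 was called with the array median in place of the 75th percentile, at -1.05. Among 9 genes that recycle methylthioadenosine, the by-product of nicotianamine synthesis, ARD3 was called higher in flower buds, at 5.90 ± 0.61 (adjusted p = 2.82e-05) and 5.28 without root replicate 4. MTN1, a methylthioadenosine nucleosidase, and ARD1, an acireductone dioxygenase, differed by -1.1 and -1.04, and neither was called with scaling on 5 reference genes. ARD1 also missed the fold threshold under quantile normalization and without flower bud replicate 4, root replicate 2 or root replicate 3. The other 6 were not called.

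Partners in iron distribution were mixed. IREG1, an iron exporter of the root stele, differed by -2.73 ± 0.24 (adjusted p = 9.54e-06) and by -1.80 under normexp. ZIF1 was not called, at 0.25 ± 0.33 (adjusted p = 0.498), and FRD3 had no matched probe.

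Of the transcription factors described upstream of NAS genes or of the iron deficiency response, 8 of 9 were tested. There were 4 called higher in roots and 1 in flower buds, beside 24.8% and 30.2% of all genes tested. bHLH39 had 0.0720% to 0.0839% in flower buds, where no array was well above background, against 16.0% to 27.8% in roots. Within the main processing roots exceeded flower buds at least 55.8-fold (115-fold with any flagged spot). The normexp fit of -3.70 was smaller in size than this bound of -5.80 on the log2 scale. bHLH38 and BHLH101 differed by -3.33 ± 0.19 and -5.38 ± 0.49 (adjusted p = 7.97e-07 and 1.26e-05), and by -1.70 and -2.20 under normexp. The bHLH38 probe was well above background on 3 and the BHLH101 probe on 1 of the 4 flower bud arrays. BHLH100 was not called, at 0.16 ± 0.54 (adjusted p = 0.792). PYE, a repressor of NAS4 and ZIF1 under iron deficiency, and MYB10, an activator of NAS4, differed by -0.05 and -0.05 and were not called. MYB72, the close relative of MYB10, was well above background on 3 root arrays and on 0 flower bud arrays and was not tested. The zinc deficiency factors bZIP19 and bZIP23 were called in opposite directions, at -1.51 ± 0.11 and 1.12 ± 0.12 (adjusted p = 2.53e-06 and 4.16e-05). The call of bZIP23 missed the fold threshold under normexp, array median and quantile processing, at 0.98, 0.97 and 1.00.

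**Figure D4:**
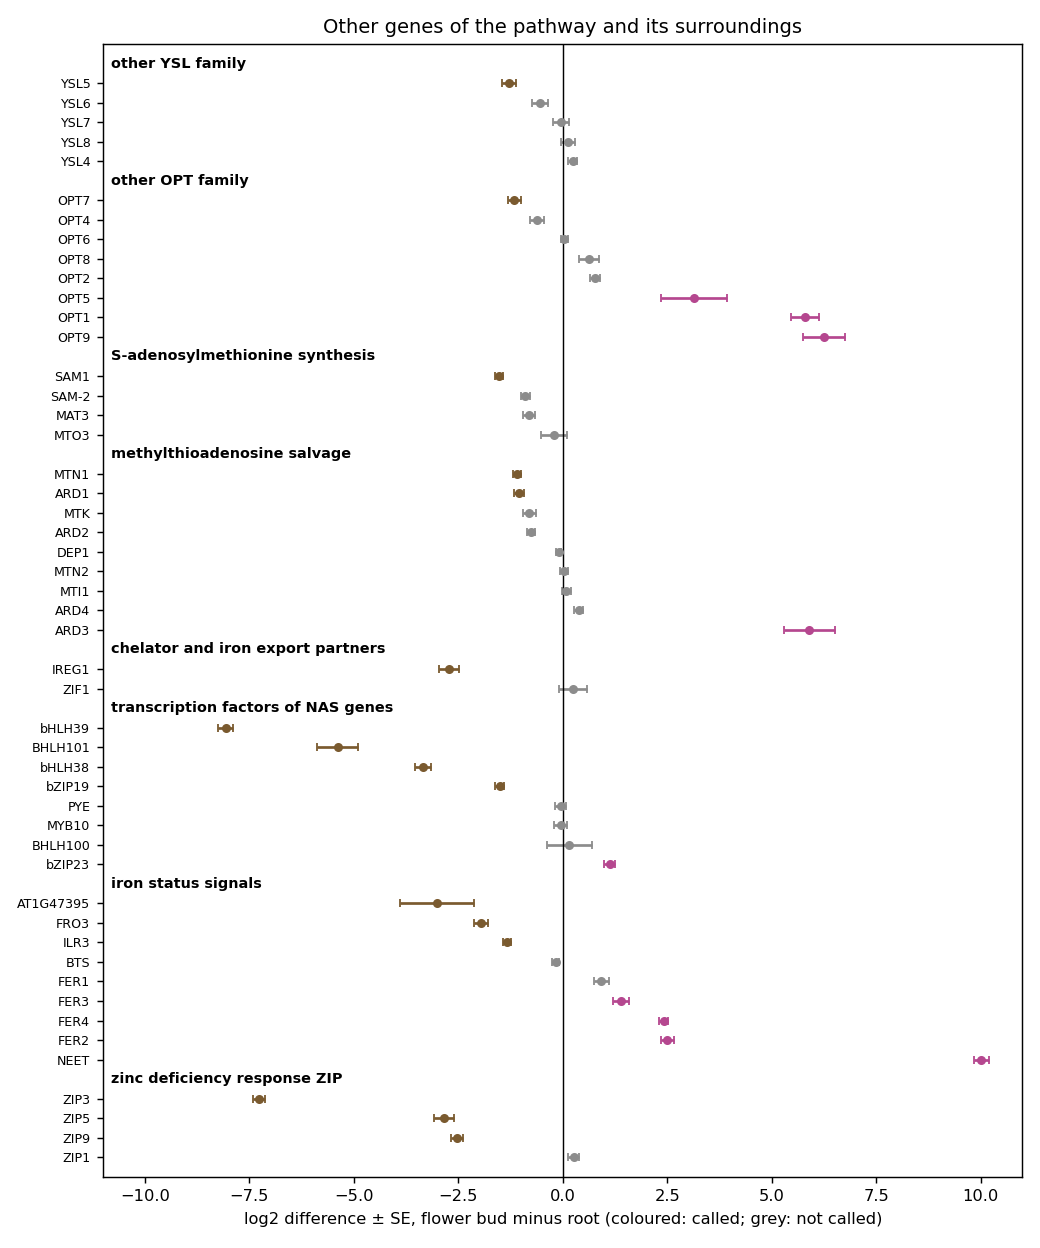
Differences ± SE on a log2 axis, flower bud over root, of the 49 tested genes in 8 lists around nicotianamine synthesis (n = 4 arrays per tissue). Coloured points were called and grey points were not. NEET lies farthest right at 10.02 and bHLH39 farthest left at -8.07, a fitted value whose flower bud arrays were all at background.

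Among genes that respond to iron status 4 of 9 tested were called towards flower buds and 3 towards roots. Over all genes tested these shares were 30.2% and 24.8%. The ferritins, plastid and mitochondrial iron storage proteins, were called higher in flower buds for 3 of 4 members, with FER2 at 2.51 ± 0.15, FER4 at 2.41 ± 0.11 and FER3 at 1.41 ± 0.19 (adjusted p = 9.50e-07, 1.46e-07 and 0.000169). FER1 missed the fold threshold at 0.93 and passed it under 6 alternatives, at 1.02 to 1.37. NEET, an iron-sulfur protein of organelles, differed by 10.02 ± 0.19 (adjusted p = 1.62e-09), or 8.59 under normexp, and 2 of 4 root arrays measured it well above background. Green tissue markers, among them SBPASE and GAPB, were called higher in flower buds for 5 of 5, and their part in these differences was not tested.

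Regulators and reductases of the same list were called higher in roots or not called. FRO3, a mitochondrial ferric reductase, differed by -1.96 ± 0.17 (adjusted p = 9.22e-06), and ILR3, a transcription factor of the iron response, by -1.33 ± 0.09 (adjusted p = 1.65e-06). The ILR3 difference was -0.89 with scaling on 5 reference genes and was not called there. BTS, a ubiquitin ligase that limits the iron deficiency response, was not called, at -0.17 ± 0.09 (adjusted p = 0.105).

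The locus AT1G47395 had 0.420%, 0.475%, 1.14% and 2.21% in flower buds, against 10.0%, 9.20%, 18.0% and 1.24% in roots. Root replicate 4 lay inside the flower bud range, as the lowest root array, and the groups overlapped through it. The difference was -3.0 ± 0.88 (adjusted p = 0.0126), -3.81 without root replicate 4 and -1.87 under normexp. The neighbouring locus AT1G47400 was well above background on 2 flower bud and 3 root arrays and was not tested.

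Zinc transporters of the ZIP group include several that respond to zinc deficiency as NAS2 and NAS4 do. Of 4 members with a probe 3 were called higher in roots, beside 24.8% of all genes tested. ZIP3 differed by -7.27 ± 0.15 (-6.25 under normexp) and ZIP5 by -2.84 ± 0.25 (adjusted p = 2.79e-09 and 9.49e-06). The summed signal of the 4 was 44.98% to 59.8% in flower buds and 404% to 589% in roots, where ZIP3 alone had 246% to 380%.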

How the data were processed

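Spot intensity per array was read from the deposited scanner files, background-subtracted within each array by Agilent Feature Extraction 10.10.1.1 and not scaled between arrays, per the file headers. The deposited log2 value table followed the scanner signal, shifted to the 75th percentile and centred on each probe's median (r of at least 0.9993 per array). The authors' steps for it are not given in the sources used here, and it served only as an alternative. Column medians of flower bud replicates 1 to 4 were -0.0080, -0.0549, -0.0407 and -0.0582, and those of root replicates 1 to 4 were -0.0105, 0.0948, 0.0898 and 0.0252.

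Repeated lines at the end of 6 files, control spots and 6 to 191 outlier spots per array were dropped, and no spot was saturated. Spots of a probe were averaged as log2 signal, from which the array's 75th percentile over probes was subtracted. A probe was well above background on an array if a majority of its spots carried that flag. Of 43603 probes, 34285 matched 1 locus through transcript accessions of the RefSeq table, and 9318 matched none. The probe with the highest mean processed signal stood for its gene. Genes measured in this sense by the 4 arrays of either tissue were tested in limma 3.58.1 (R 4.3.3, lmFit and eBayes) with tissue as the single factor. The pipeline was tested on simulated data. All 8 arrays lay on 1 slide, flower buds in row 2 and roots in row 1, and slide row cannot be told apart from tissue.

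The alternatives were normexp background correction (offset 50, on median spot signals, since mean signals are not in the columns) with quantile normalization, array median, quantile and reference gene scaling, other filters, all probes of a gene, the deposited table, no fold threshold, leaving out each array, a replicate block and, added after seeing the data, bounds with any flagged spot, flower bud spread without replicate 4 and Dixon's test on percentages. The 8 genes, the lists and the alternatives were chosen with earlier results of these data known. Named are the 8 genes, all members of 5 short lists, the 2 largest called differences in each direction of the other lists and the 2 nearest profiles of each of the 8 genes measured on all arrays. SUC2, APL, TUA1, OPT2 and OPT8 were named after their values were seen. No sequences are given, since neither probe nor gene sequences were used here.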

Additional observations from a re-analysis of the deposited data

Results flagged for a closer look

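By Dixon's test on the log2 scale, 0 of 16 groups of 4 arrays of the 8 genes and 8 of 152 groups of the other listed genes had an array that stood apart, and chance alone gives about 1 in 20. On the percentages themselves, a scale added after seeing the data, YSL3 on root replicate 4 also stood apart, at 287% against 170% to 189% on the other root arrays, with a gap of 0.836 of the range. ZIF1 stood high on flower bud replicate 4, at 425% against 350% to 355% on the other flower bud arrays, and on root replicate 4, at 663% against 224% to 255% on the other root arrays. ARD3 was low on root replicate 4, at 1.77% against 8.69% to 11.2%. BHLH100, SAM2 and ZIP1 were low on flower bud replicate 4, at 0.980% (1.478% to 1.502% on the others), 539% (583% to 590%) and 21.8% (29.1% to 30.4%). YSL8 and MTK were high on flower bud replicate 3, at 61.3% (40.9% to 41.2%) and 170% (132% to 137%).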

How the results depend on the processing

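Under the alternatives the 7 called genes kept direction and call wherever they were tested, and NAS4 stayed without a call, at -0.14 to 0.68. Restricting the test to genes measured on all 8 arrays left 3 of the 8 genes called, since NAS1, NAS2, NAS3 and YSL1 were then not tested. Normexp moved NAS1, NAS2, NAS3 and YSL1 by over 1.5-fold, to -6.57, -5.16, 3.21 and 4.74, and turned the NAS1 over NAS2 ratio difference to -1.41. The normexp processing included an offset of 50 added to every spot, and the part of this offset in these moves was not tested. Leaving out 1 array gave -8.89 to -7.02 for NAS1 and 5.80 to 7.01 for NAS3. Calls over all genes numbered 12215, and 8396 to 18269 under the alternatives. Scaling on reference genes moved the median of all genes from 0.15 to 0.59. With replicate number as a block 12176 genes and the same 7 of the 8 were called. Same-numbered arrays of the tissues correlated at -0.13 to 0.13 in their deviations, and differently numbered arrays at -0.31 to 0.30. Of 8 arrays 4 correlated best with their own number. These values cannot decide whether the numbers mark pairs, since deviations within a tissue are not independent. The labels name no pairs, and the main fit used none. Counting any flagged spot as measured, a setting chosen after seeing the data, raised the bounds of NAS2, NAS3, OPT9 and bHLH39 to 352, 43.6, 39.2 and 115-fold. Low signal limits NAS2 in flower buds and NAS3 in roots to bounds, which hold for the main processing only. The normexp fits of NAS2, NAS3, OPT9 and bHLH39 were smaller in size than their bounds. With the offset included, these fits cannot test the bounds.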
